A study of Mus musculus with 8 samples.

Results

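The genes examined were 40 members of glucose metabolism and the response to low oxygen, covering glucose transport, glycolysis, lactate handling, the pyruvate dehydrogenase kinases, the pentose phosphate pathway and hypoxia-inducible genes. They were taken by gene symbol from the 41325 symbols listed for each of 8 RNA-seq libraries, and 39 were found under the listed symbol. *Aldoa* was found as a pair of rows, of which the row that corresponds to the annotated *Aldoa* gene with its full exon length was used, while the other held an RPKM of 0.0983 to 0.611. RPKM (the reads of a gene scaled by its exon length in kilobases and by the mapped reads of the library) was the measure throughout. That length joins all annotated exons of a gene, so the order of genes and the shares of isoforms also depend on it. A gene was taken as expressed when at least 1 library had it above an RPKM of 1, which held for 35 of the 40 members and for 11513 genes in all. The 5 members below that limit were *Slc2a3*, *Aldoc*, *Pfkfb1*, *Slc16a3* and *Egln3*. *Pfkfb1* came closest, with a highest RPKM of 0.899, and *Pfkfb4* lay just above the limit, with a highest RPKM of 1.12.

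Glycolysis splits glucose to pyruvate in the cytosol and yields ATP and NADH, and lactate dehydrogenase returns NADH to NAD when pyruvate is not oxidised in mitochondria. The pyruvate dehydrogenase kinases switch off the entry of pyruvate into the citrate cycle, and the pentose phosphate pathway draws glucose phosphate away to make NADPH, which fat cells use for fatty acid synthesis. In low oxygen the transcription factor HIF, formed by an oxygen-labile alpha subunit and ARNT, binds DNA at the core letters ACGTG or GCGTG and raises many glycolytic genes, while in adipocytes insulin moves the glucose transporter GLUT4 to the cell surface.

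C3H10T1/2 cells, a mouse mesenchymal stem cell line, were sequenced in 4 stable lines, which were the control cells (shControl) and cells carrying shRNA against *Kdm4d* (shKDM4D), *Nfib* (shNFIB) or *Mll1*, listed as *Kmt2a* (shMLL1). Each line was sampled at day 0, when the cells had been confluent but not yet induced, and at day 5 after induction with insulin, dexamethasone and isobutylmethylxanthine (MDI). The control cells are labelled wild type. The knockdown lines were grown from puromycin-resistant clones transfected with the shRNA vector pLKO.1, and the sources do not say which clone was sequenced, so a feature of a line may be a feature of its clone. All 8 libraries are of unsorted cells in culture, with 1 library per condition. There is therefore no spread between replicates and no test of any difference below. The 95% intervals are exact (Clopper-Pearson) intervals of the log2 ratio given the reads of both libraries. They cover counting error only, and reads copied by PCR are not independent molecules.

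The libraries held 15800000 to 38200000 mapped reads, as recovered from the RPKM values, and 3 reads in a gene with 1 kb of exons were worth an RPKM of 0.0785 to 0.189. *Nfib* and *Kmt2a* were lower in their knockdown lines at both days, whereas *Kdm4d* was at an RPKM of 0.0262 in shControl and 0.0179 in shKDM4D cells at day 0, too low to check the label at that day. At day 5 *Kdm4d* was at 0.235 in shControl and 0.0647 in shKDM4D cells, lower in its knockdown line but still far below an RPKM of 1. The summed RPKM of 8 adipocyte markers was 4.12 to 10.95 at day 0, where *Plin1*, *Cidec* and *Cfd* were at 0 in shControl cells. At day 5 shControl cells had a sum of 831 and shKDM4D cells 39.1, while shNFIB and shMLL1 cells had 12.1 and 12.5. The 9 mesenchymal markers summed to 1584 to 2184. Among them *Nt5e* was at or near 0 in all libraries, and *Thy1* was 0.0171 to 0.139 in shKDM4D and shNFIB cells against 11.1 to 25 in the other lines. The other markers of this list were expressed in all libraries, from *Eng* (6.47 to 17.2) to *Vim* (984 to 1510). Macrophage and endothelial markers summed to at most 1.66 and 0.147. A pair of ribosomal RNA-like rows took 7.95% to 10.5% of the reads at day 0 and 3.07% to 3.62% at day 5, and their part in the day comparisons was not tested. The median day 5 to day 0 log2 ratio of all 11513 expressed genes was 0.17 in shMLL1 and 0.10 in shNFIB cells as deposited. With median-of-ratios scaling it became -0.04 and -0.01, and with quantile normalization -0.09 and -0.04, so changes are given beside that median.

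From day 0 to day 5, the members past 2-fold in the deposited values were all higher, in every line. In shControl cells 10 of the 35 expressed members were higher by more than 2-fold (background 13.0% of all expressed genes) and none was lower (background 8.56%, 21.6% in either direction), and the median log2 ratio was 0.36 for the members and 0.03 for all expressed genes. The shKDM4D cells had 6 higher members (background 12.8%) and none lower (8.44%, 21.2% in either direction), with medians of 0.11 and 0.03. In shNFIB cells 9 were higher (background 12.6%) and none lower (4.96%, 17.6% in either direction), with medians of 0.56 and 0.10. The shMLL1 cells had 12 higher members against the largest background (20.4% higher, 6.89% lower, 27.3% in either direction) and again none lower, with medians of 0.49 and 0.17. The share of higher members was 28.6%, 17.1%, 25.7% and 34.3% in the 4 lines, and it lay nearest to the background in shKDM4D cells. *Eno2*, *Pfkfb3*, *Ldhb*, *Ndrg1* and *Slc2a4* were past 2-fold in all 4 lines, the last on 4 and 3 reads in shNFIB and shMLL1 cells. *Pdk1*, *Pdk2*, *Bnip3* and *Ankrd37* were past 2-fold in 3 lines. Of the 35 expressed members, 22 stayed within 2-fold in all 10 comparisons of day or line. The shares of all expressed genes that met such criteria over several lines or comparisons are not given here. These counts therefore have no background beside them and do not set the members apart from other genes.

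The background itself moved with the scaling of the libraries. In shMLL1 cells, 2345 genes were higher and 793 lower at day 5 as deposited. Median-of-ratios scaling gave 1851 and 1219, and quantile normalization 1526 and 1366. In shNFIB cells, 1451 were higher and 571 lower as deposited, and 1076 and 839 after quantile normalization. The members had 10 higher and 1 lower (*Pfkfb4*) in shMLL1 cells after quantile normalization, and 8 higher and none lower in shNFIB cells. Divided by *Gapdh*, the shNFIB cells had 8 members higher and 1 lower, which was *Pdk4*.

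**Figure D1:**
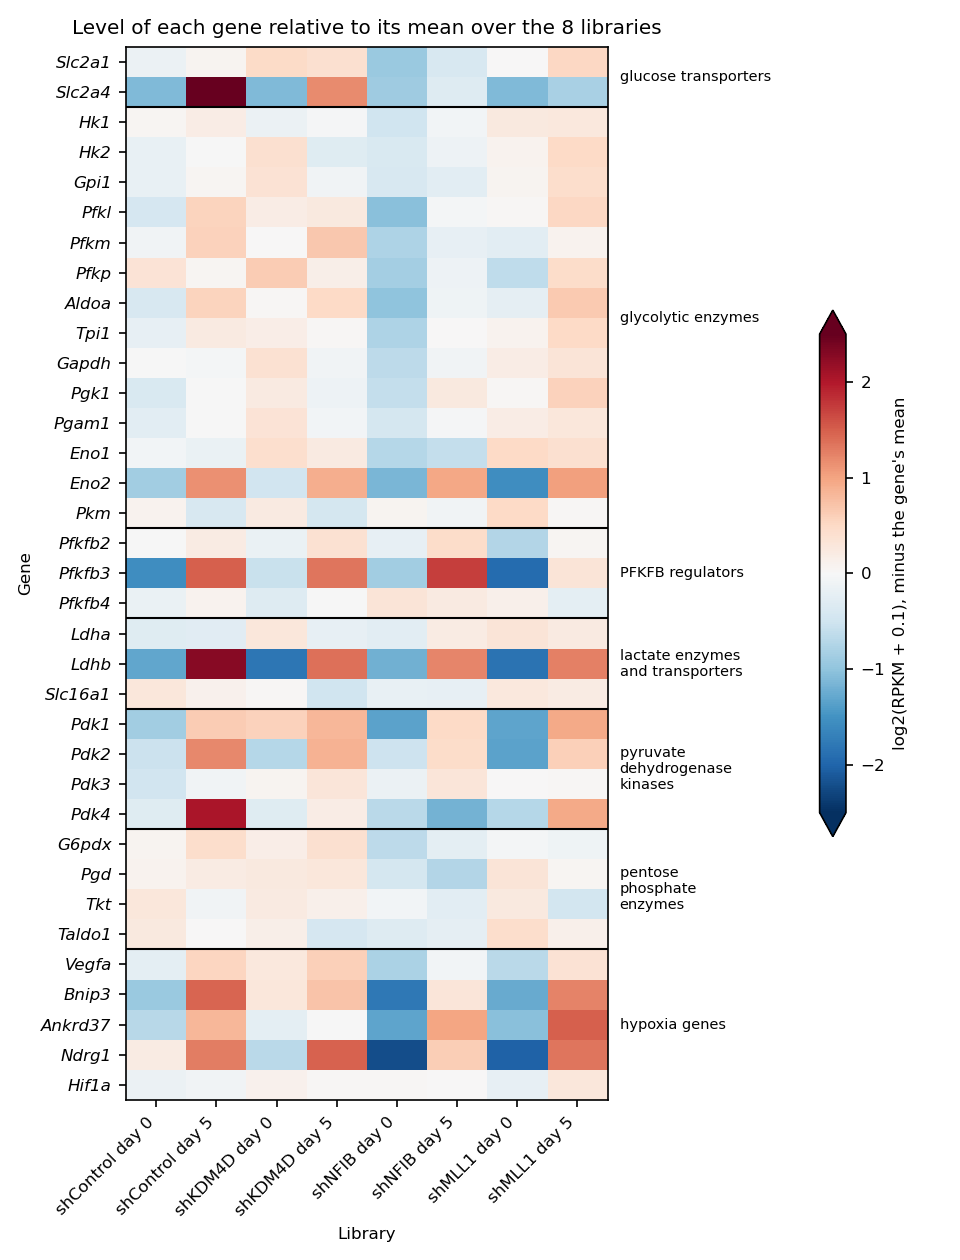
Level of the 35 expressed members in the 8 libraries (columns), grouped by role (rows), as log2(RPKM + 0.1) minus the mean of the gene over the libraries, with red above and blue below that mean; 1 library per column. The rows of *Eno2*, *Pfkfb3*, *Ldhb*, *Pdk1*, *Pdk2*, *Bnip3*, *Ankrd37* and *Ndrg1* turn from blue at day 0 towards red at day 5, while most glycolytic enzymes are palest except in shNFIB cells at day 0.

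Because many of these genes are known HIF targets, the letters of the HIF core were looked up in the promoters. RefSeq promoters of GRCm38.p6, searched over the 250 bases before the start, were on hand for 37 of the 40 members (none for *Slc2a3*, *Slc2a4* and *Ndrg1*). ACGTG, or CACGT when read on the other strand, was in 19 of the 37 members (51.4%), in 18.5% of the 27025 genes with an entry and in 25.5% of the 8881 expressed genes with one. It overlaps CACGTG, a motif of other factors, which was in 8 of the 37 members. The other form of the core, GCGTG, was in 26 of the 37 members (70.3%), against 30.9% of all genes with an entry and 50.9% of the expressed ones. A gene counts here if any of its promoters holds the letters, and the 37 members had 58 promoters, the 8881 expressed genes 11324. Per promoter, ACGTG was in 39.7% for the members and 21.9% for the expressed genes. For GCGTG these shares were 53.4% and 45.1%, which lie closer together. Among the members past 2-fold higher at day 5 in at least 3 lines, 4 of the 7 with an entry held ACGTG, and among those within 2-fold everywhere, 12 of 22. Members that moved and members that did not held these letters in like shares. This describes the letters and not binding. The windows below show the ACGTG match nearest to a start, in capitals, 5′ to 3′ on the strand of the gene. The first group rose in at least 3 lines, and the second group consists of known HIF targets that stayed within 2-fold.
*Pfkfb3* (chr2:11502128-11502152, minus strand): ccttctctccACGTGaaagggggct
*Pdk2* (chr11:95041482-95041506, minus strand): gaggagagccACGTGtcgaagcgca
*Bnip3* (chr7:138909599-138909623, minus strand): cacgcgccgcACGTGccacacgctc
*Ankrd37* (chr8:45999851-45999866, minus strand): gtgtttgggtACGTGa
*Slc2a1* (chr4:119108699-119108723, plus strand): cccgccccggACGTGctccccaggc
*Pgk1* (chrX:106186959-106186983, plus strand): atggaagtagCACGTctcactagtc
*Ldha* (chr7:46845760-46845784, plus strand): tgggttcccgCACGTccgctgggct
*Pgam1* (chr19:41911747-41911771, plus strand): ctccttgcttACGTGcgctccgtga

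Glucose enters these cells by facilitated transport, and the transporter genes split into a steady and a changing member. *Slc2a1*, which encodes the widely expressed GLUT1 (chromosome 4 of GRCm38, 119108711 to 119137983), had an RPKM of 11.7 at day 0 and 13.7 at day 5 in shControl cells, 18.3 and 17.2 in shKDM4D, 6.78 and 9.90 in shNFIB, and 13.1 and 18.6 in shMLL1 cells. It was lowest in shNFIB cells on both days, with a log2 ratio to shControl of -0.78 (-0.95 to -0.62) at day 0 and -0.47 (-0.63 to -0.32) at day 5. *Slc2a4*, which encodes the insulin-responsive GLUT4 (chromosome 11, 69942539 to 69948188), was at 0 at day 0 in shControl, shKDM4D and shMLL1 cells and at 0.0154 (1 read) in shNFIB cells. At day 5 shControl cells had 3.66 (246 reads) and shKDM4D cells 0.386 (29 reads), while shNFIB cells had 0.0726 (4 reads) and shMLL1 cells 0.0226 (3 reads). Its log2 rise, against the limit of 3 reads that a count of 0 allows in a library, was 6.82 in shControl and 3.13 in shKDM4D cells. The lower ends of its counting intervals were 6.51 and 2.74. In shNFIB cells the log2 ratio was 2.24 with an interval from -1.10 to 7.86, so no rise was detectable at this depth there, nor in shMLL1 cells. Compared with shControl cells at day 5, the log2 ratio of *Slc2a4* was -3.25 (-3.85 to -2.69) for shKDM4D, -5.66 (-7.54 to -4.28) for shNFIB and -7.34 (-9.63 to -5.77) for shMLL1 cells. It made up 21.02% of the summed RPKM of the 3 transporter genes in shControl cells at day 5 and at most 2.20% elsewhere. The summed adipocyte markers given above ranked shControl first and shKDM4D second at day 5 as *Slc2a4* did, and their part in this difference was not tested. In bulk RNA, fewer cells of a type and less RNA per cell cannot be told apart. *Slc2a3*, the gene of the neuronal GLUT3, had at most 2 reads in a library.

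The enzymes from hexokinase to pyruvate kinase included the most abundant members, and 12 of the 14 expressed ones stayed within 2-fold in shNFIB and shMLL1 cells and 13 in the other lines from day 0 to day 5. Their summed RPKM, *Gapdh* included, was 1530.3 at day 0 and 1793 at day 5 in shControl, 2065 and 1765 in shKDM4D, 1186 and 1644 in shNFIB, and 1956 and 2273 in shMLL1 cells. The sum was higher at day 5 in 3 lines and lower in shKDM4D cells, and it was lowest in shNFIB cells at each day. Of the 14 expressed enzymes, 10 were higher at day 5 in shControl cells, and 5, 13 and 12 in the shKDM4D, shNFIB and shMLL1 lines. Of the 12 in shMLL1 cells, *Hk1*, *Pgam1* and *Gapdh* were at most 0.12 on the log2 scale and below 0 after either other scaling, and in shNFIB cells *Eno1* (0.13) was below 0 after quantile normalization. By mean RPKM over the libraries the leading enzymes were *Pgk1* (297), *Aldoa* (275), *Pgam1* (274), *Gapdh* (255), *Pkm* (252) and *Eno1* (209), followed by *Tpi1* (87.7). The ranges of the first 6 over the libraries overlap, so that their order is not fixed. Their order also depends on exon length. In shControl cells at day 0 *Gapdh* had 27238 reads over 4133 bases of exons, and *Pgk1* had 13321 over 2244. The place of *Eno1* also leaves out its near-identical copy *Eno1b*, described below, with which it summed to 336 to 790. *Pgk1*, the first enzyme of the pathway to yield ATP (chromosome X, 106187100 to 106203699), had an RPKM of 223 and 287 at day 0 and day 5 in shControl, 339 and 266 in shKDM4D, 192 and 344 in shNFIB, and 295 and 429 in shMLL1 cells. It was lower at day 5 in shKDM4D cells (log2 ratio -0.35, -0.38 to -0.31) and higher in the other lines, with the largest ratio in shNFIB cells (0.84, 0.80 to 0.88). *Aldoa*, the main aldolase of muscle and fibroblasts, had day 5 to day 0 log2 ratios of 0.47 to 0.94 and was above 0 in all 4 lines. *Pkm*, the pyruvate kinase of most tissues, went the other way, with log2 ratios of -0.17 to -0.67 in the 4 lines. *Hk1* and *Hk2*, the hexokinases that trap glucose in the cell, *Gpi1*, the next enzyme, and *Tpi1* and *Pgam1* of the lower pathway stayed within 2-fold in all comparisons, and *Hk1* made up 83.2% to 89.8% of the summed RPKM of both hexokinases.

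The isoforms of phosphofructokinase, the committed step of glycolysis, did not move alike. *Pfkl*, the liver type (chromosome 10, 77986947 to 78010083), had an RPKM of 16.1 and 31.4 at day 0 and day 5 in shControl, 24.3 and 25.6 in shKDM4D, 10.3 and 20.6 in shNFIB, and 21.8 and 30.8 in shMLL1 cells. It lay at the 2-fold limit in shNFIB cells (log2 ratio 1.00, 0.90 to 1.10, and 0.96 after quantile normalization) and just under it in shControl cells (0.96, 0.90 to 1.03), while in shKDM4D cells the ratio was 0.07. *Pfkp*, the platelet type (chromosome 13, 6579768 to 6648777), had an RPKM of 11.3 and 9.21 in shControl, 14.0 and 9.93 in shKDM4D, 4.88 and 8.17 in shNFIB, and 5.68 and 12.3 in shMLL1 cells. It was lower at day 5 in shControl and shKDM4D cells (log2 ratios -0.29 and -0.50) and higher in shNFIB and shMLL1 cells (0.74 and 1.11), the last of which fell below 2-fold after quantile normalization (0.93) and median-of-ratios scaling (0.90). At day 0 it was below shControl cells in shNFIB (-1.20, -1.30 to -1.11) and shMLL1 cells (-0.98, -1.05 to -0.92), so that its share of the 3 isoforms was 25.2% in shControl and 13.2% in shMLL1 cells. *Pfkm*, the muscle type, was higher at day 5 in all 4 lines by log2 ratios of 0.34 to 0.68.

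*Eno2* was the enzyme that changed most. This gene of the neuron-specific enolase (chromosome 6, 124760053 to 124769673) had an RPKM of 1.68 at day 0 and 7.17 at day 5 in shControl, 2.24 and 6.05 in shKDM4D, 1.39 and 6.28 in shNFIB, and 1.02 and 6.54 in shMLL1 cells. All day 5 libraries were above all day 0 libraries, and the log2 ratios were 2.10 (1.87 to 2.33), 1.43 (1.20 to 1.67), 2.18 (1.89 to 2.48) and 2.68 (2.46 to 2.92). Its level stayed far below that of *Eno1*, the enolase of most tissues, at 121 to 283. The value of *Eno1* is uncertain, because *Eno1b* is 99.5% identical to it and took 64.1% to 65.5% of the RPKM of both genes in every library. Summed, *Eno1* and *Eno1b* stood at 336 to 790, and their day 5 to day 0 direction is that of *Eno1* alone in each line. *Aldoc*, the brain aldolase, was at 0.0157 to 0.0567.

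The PFKFB enzymes set the level of the strongest activator of phosphofructokinase, and among them *Pfkfb3*, the isoform with the highest kinase activity, had the largest share in all 4 lines at day 5. *Pfkfb3* (chromosome 2, 11471433 to 11554077), one of the promoters shown above, had an RPKM of 0.705 and 6.5 at day 0 and day 5 in shControl, 1.5 and 5.87 in shKDM4D, 1.19 and 7.68 in shNFIB, and 0.519 and 2.84 in shMLL1 cells. Every day 5 value exceeded every day 0 value, with log2 ratios of 3.20 (2.95 to 3.47), 1.97 (1.75 to 2.18), 2.69 (2.45 to 2.94) and 2.45 (2.20 to 2.71). Its share of the 4 PFKFB genes in shControl cells was 21.6% at day 0 and 68.6% at day 5, and in shMLL1 cells, the lowest, 17.5% and 56.1%. The shKDM4D line began at 43.1% and reached 69.4%, and the shNFIB line began at 29.1% and reached 72.3%. At day 5 it was lower in shMLL1 than in shControl cells (-1.19, -1.33 to -1.06), while shKDM4D (-0.15) and shNFIB cells (0.24) were near the control. At day 0 it was higher in shKDM4D than in shControl cells (1.09, 0.78 to 1.41). *Pfkfb2*, the heart isoform, and *Pfkfb4* stayed at 0.585 to 1.45 and 0.682 to 1.12, and *Pfkfb1*, the liver isoform, at 0.334 to 0.899.

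Of the lactate dehydrogenase genes, the abundant *Ldha* stayed within 2-fold and the scarce *Ldhb* was higher at day 5. *Ldha*, whose subunit favours lactate formation (chromosome 7, 46841475 to 46855627), had an RPKM of 162 and 164 at day 0 and day 5 in shControl, 241 and 173 in shKDM4D, 166 and 228 in shNFIB, and 249 and 231 in shMLL1 cells. Its log2 ratio of day 5 to day 0 was -0.47 (-0.51 to -0.44) in shKDM4D and 0.45 (0.42 to 0.49) in shNFIB cells, close to the -0.47 and 0.56 of *Gapdh* in these lines. *Ldhb*, whose subunit favours lactate use (chromosome 6, 142490249 to 142507957), had an RPKM of 3.35 and 41.1 in shControl, 2.35 and 21.9 in shKDM4D, 3.62 and 19.8 in shNFIB, and 2.28 and 20.4 in shMLL1 cells. No day 0 value came near a day 5 value. The log2 ratios of day 5 to day 0 were 3.62 (3.37 to 3.88), 3.22 (2.87 to 3.59), 2.45 (2.15 to 2.77) and 3.16 (2.91 to 3.43), with the lines ordered as before. The share of *Ldhb* in the RPKM of both genes went from 2.02% to 20.004% in shControl and from 0.966% to 11.2% in shKDM4D cells. The shNFIB and shMLL1 lines went from 2.13% to 7.99% and from 0.909% to 8.13%. At day 5 the knockdown lines had about the same lower level, with log2 ratios to shControl of -0.91 (-1.04 to -0.78), -1.06 (-1.21 to -0.90) and -1.01 (-1.12 to -0.89), the first of which did not pass 2-fold. *Slc16a1*, the gene of the lactate transporter MCT1, stayed at 10.1 to 17.3, and *Slc16a3*, the gene of the lactate exporter MCT4, at 0.0593 to 0.178.

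The pyruvate dehydrogenase kinases rose at day 5 in different combinations. *Pdk3*, the most abundant (chromosome X, 93764607 to 93832201), had an RPKM of 17.5 and 22.9 in shControl, 25.7 and 30.2 in shKDM4D, 22.2 and 30.2 in shNFIB, and 24.5 and 25 in shMLL1 cells, and stayed within 2-fold. *Pdk1*, a known HIF target (chromosome 2, 71873224 to 71903858), had an RPKM of 4.22 and 12 in shControl, 11.6 and 13.9 in shKDM4D, 3.02 and 11 in shNFIB, and 3.06 and 15.1 in shMLL1 cells. The shKDM4D cells were the exception, since *Pdk1* was already high there at day 0, by a log2 ratio to shControl of 1.46 (1.34 to 1.58), and its day 5 to day 0 ratio of 0.26 (0.17 to 0.35) lay below the 1.51 to 2.30 (log2) of the other lines. *Pdk2*, the isoform of most tissues (chromosome 11, 95026258 to 95041354), had an RPKM of 2.99 and 10.3 in shControl, 2.64 and 8.10 in shKDM4D, 3.05 and 6.07 in shNFIB, and 1.68 and 6.69 in shMLL1 cells. Its log2 ratios were 1.78 (1.56 to 1.99), 1.62 (1.36 to 1.88), 0.99 (0.72 to 1.27) and 1.99 (1.77 to 2.22), so that shNFIB cells missed the 2-fold limit narrowly.

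*Pdk4*, the isoform induced by fasting and fatty acids (chromosome 6, 5483351 to 5496309), separated the lines more at day 5 than the other 3 kinases. Its RPKM was 2.31 and 12 at day 0 and day 5 in shControl, 2.29 and 3.27 in shKDM4D, 1.75 and 1.20 in shNFIB, and 1.71 and 5.60 in shMLL1 cells. The log2 ratio of day 5 to day 0 was 2.38 (2.16 to 2.60) in shControl and 1.71 (1.5 to 1.93) in shMLL1 cells, 0.51 (0.22 to 0.81) in shKDM4D cells and -0.54 (-1.0 to -0.096) in shNFIB cells. Relative to shControl cells at day 5 it stood at log2 ratios of -3.32 (-3.70 to -2.96) for shNFIB, -1.88 (-2.09 to -1.67) for shKDM4D and -1.10 (-1.24 to -0.95) for shMLL1 cells. Its share of the 4 kinases was 20.99% in shControl cells at day 5 and 5.89%, 2.49% and 10.7% in the others. The order of the knockdown lines was not that of the summed adipocyte markers, among which shKDM4D cells stood above shMLL1 cells (39.1 and 12.5), although shControl cells led both. The part of the adipocyte markers in these values was not tested.

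The pentose phosphate enzymes stayed within 2-fold from day 0 to day 5, and their sum was lowest in shNFIB cells. *G6pdx*, the gene of the entry enzyme glucose phosphate dehydrogenase (chromosome X, 74409483 to 74429194), had an RPKM of 53.9 and 69.7 at day 0 and day 5 in shControl, 57.3 and 68.0 in shKDM4D, 32.5 and 43.1 in shNFIB, and 49.4 and 47.4 in shMLL1 cells. It was highest at day 5 in shControl and shKDM4D cells and lowest in both shNFIB libraries. *Pgd*, the gene of the next NADPH-forming enzyme, ranged from 8.60 to 17.8, *Tkt*, the gene of transketolase, from 13.4 to 22.6, and *Taldo1*, the gene of transaldolase, from 34.5 to 63.1. None of the 4 genes passed 2-fold in any comparison as deposited, while *Pgd* in shNFIB against shControl cells at day 5 (-0.93) reached -1.01 after either other scaling. The summed RPKM of the 4 genes was 147 and 150.5 in shControl, 147 and 140.3 in shKDM4D, 98.1 and 107 in shNFIB, and 152 and 127 in shMLL1 cells. In shNFIB cells all 4 were below shControl at both days, with median log2 ratios of -0.55 and -0.47.

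The 6 hypoxia genes had a summed RPKM of 109 at day 0 and 254 at day 5 in shControl, 142 and 215 in shKDM4D, 76.3 and 161 in shNFIB, and 76.5 and 253 in shMLL1 cells. *Bnip3*, the gene of a mitophagy receptor induced by HIF (chromosome 7, 138890836 to 138909519), had an RPKM of 23.3 and 121 in shControl, 53.8 and 72.3 in shKDM4D, 12.8 and 54.3 in shNFIB, and 18.3 and 104 in shMLL1 cells. As with *Pdk1*, the day 0 level in shKDM4D cells was above shControl (log2 ratio 1.21, 1.11 to 1.30) and the day 5 to day 0 ratio there was 0.43 (0.35 to 0.50), against 2.37, 2.09 and 2.51 in shControl, shNFIB and shMLL1 cells. *Ankrd37*, a small ankyrin-repeat gene known as a HIF target (chromosome 8, 45996902 to 46005707), had an RPKM of 2.10 and 6.22 in shControl, 2.93 and 3.43 in shKDM4D, 1.32 and 7.01 in shNFIB, and 1.62 and 10.0 in shMLL1 cells. Its log2 ratio was 1.57 (1.19 to 1.95) in shControl, 2.41 (1.89 to 2.95) in shNFIB and 2.63 (2.32 to 2.96) in shMLL1 cells, and in shKDM4D cells a rise was not detectable at this depth (0.23, -0.19 to 0.65).

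*Ndrg1*, a stress-responsive gene raised by hypoxia (chromosome 15, 66929318 to 66969640), had an RPKM of 27.0 and 57.6 at day 0 and day 5 in shControl, 14.8 and 65.7 in shKDM4D, 4.99 and 36.0 in shNFIB, and 5.69 and 59.9 in shMLL1 cells. It differed most at day 0, where it was below shControl cells by log2 ratios of -0.87 (-0.95 to -0.79) for shKDM4D, -2.44 (-2.56 to -2.32) for shNFIB and -2.25 (-2.33 to -2.16) for shMLL1 cells. At day 5 these ratios were 0.19, -0.68 and 0.05, the last of which turned negative (-0.01) after quantile normalization, so that the lines differed less at day 5 than at day 0. *Vegfa*, the gene of the angiogenic factor VEGF (chromosome 17, 46016993 to 46032369), had an RPKM of 14.6 and 25.2 in shControl, 20.6 and 26.0 in shKDM4D, 9.97 and 16.5 in shNFIB, and 10.8 and 22.3 in shMLL1 cells. It was higher at day 5 in each line and passed 2-fold only in shMLL1 cells (1.05, 0.96 to 1.13), a call that was lost after quantile normalization (0.90) and median-of-ratios scaling (0.84). *Hif1a*, which encodes the oxygen-labile HIF subunit and is controlled mainly at the protein level, stayed at 40.1 to 56.3. *Egln3*, the gene of a HIF prolyl hydroxylase, had an RPKM of at most 0.0577, which was 3 reads.

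**Figure D2:**
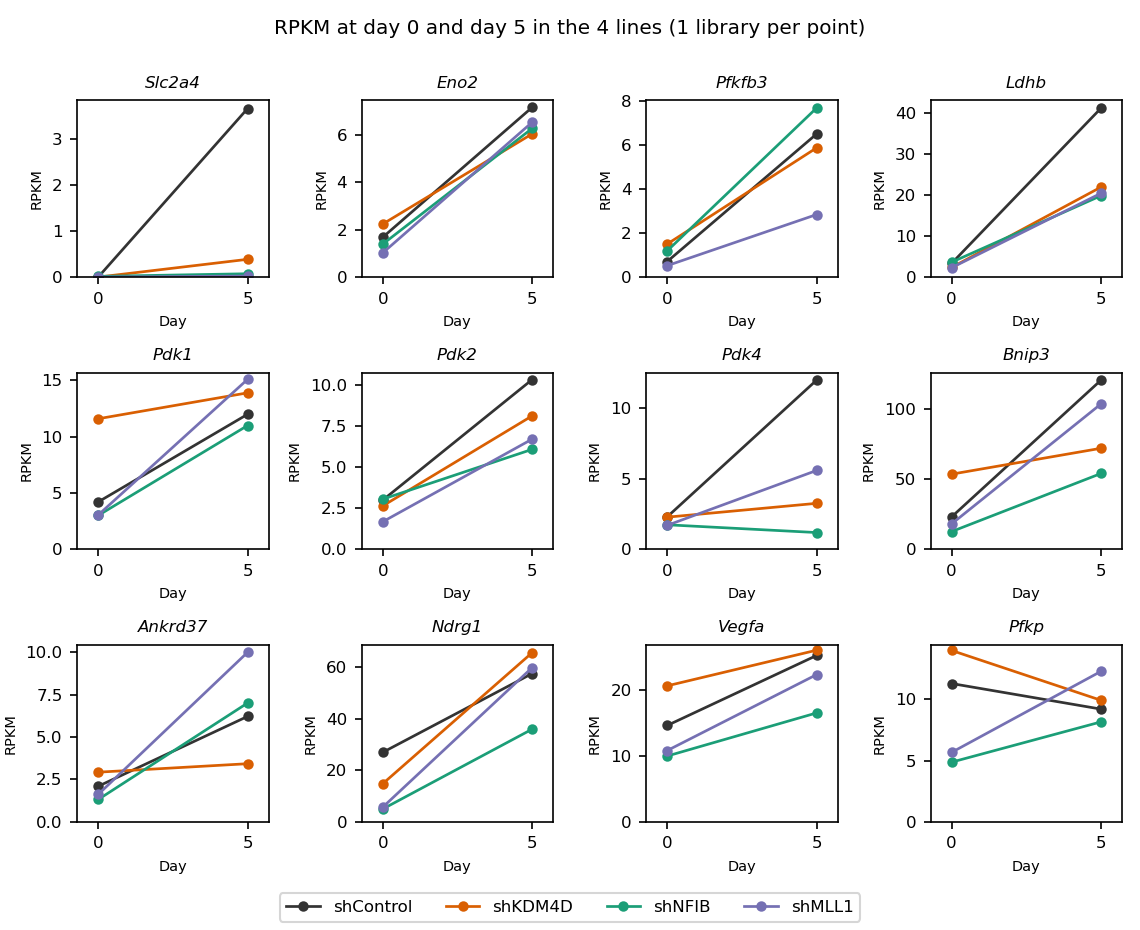
RPKM of 12 members at day 0 and day 5 (horizontal axis) on linear axes from 0, with 1 line per cell line and 1 library per point. *Slc2a4* reaches 3.66 in shControl cells and 0.386 or less elsewhere, *Pdk4* separates the 4 lines at day 5 (12, 5.60, 3.27 and 1.20), and *Pdk1* and *Bnip3* start highest in shKDM4D cells.

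Before induction the knockdown lines differed from shControl cells in few members past 2-fold, while most glycolytic enzymes lay above the control in shKDM4D and shMLL1 cells and below it in shNFIB cells. In shKDM4D cells *Pfkfb3*, *Pdk1* and *Bnip3* were higher (3 of 35, background 1.98%) and none was lower (background 4.26%, 6.24% in either direction). The median of the members was 0.38, against 0.00 for all expressed genes, and 13 of the 14 expressed glycolytic enzymes were above shControl. In shNFIB cells *Pfkp* and *Ndrg1* were lower (2 of 35, background 6.05%), and the count of 1 higher member (background 2.95%, 9.00% in either direction) rests on a single read of *Slc2a4*. The median was -0.47, against 0.03 for all genes, and all 14 enzymes were below shControl by log2 ratios of -0.01 (*Pkm*, 0.06 after quantile normalization) to -1.20 (*Pfkp*). In shMLL1 cells only *Ndrg1* was lower (1 of 35, background 7.43%) and none was higher (1.67%, 9.09% in either direction), with a median of 0.07 against -0.07 and 11 of the 14 enzymes above shControl. All 3 comparisons use the same shControl library, so they are not independent. Divided by *Gapdh*, 1 member was higher and 1 lower in shKDM4D cells, and 3 were higher and 1 lower in shNFIB cells.

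At day 5 every member past 2-fold was below shControl cells. These were *Slc2a4* and *Pdk4* in shKDM4D cells (2 of 35, background 4.57%, 6.44% in either direction), *Slc2a4*, *Ldhb*, *Pdk4* and *Bnip3* in shNFIB cells (4 of 35, background 5.67%, 11.2% in either direction), and *Slc2a4*, *Pfkfb3*, *Ldhb* and *Pdk4* in shMLL1 cells (4 of 35, background 4.02%, 9.28% in either direction). The share of genes past 2-fold higher was 1.88%, 5.54% and 5.25% in the background. The medians of the members were -0.07, -0.25 and 0.09, against 0.01, 0.09 and 0.07 for all genes. The members' median thus lay below that of all genes most in shNFIB cells, where 12 of the 14 expressed glycolytic enzymes and all 4 pentose phosphate genes were below shControl, and *Slc2a4* and *Pdk4* were past 2-fold lower in each knockdown line. These comparisons share the shControl library of day 5.

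*Gapdh*, the gene of glyceraldehyde phosphate dehydrogenase (chromosome 6, 125161715 to 125166467), is often used as a reference gene, and the RT-qPCR of the study was normalised to it. Its RPKM was 247 at day 0 and 243 at day 5 in shControl, 326 and 236 in shKDM4D, 159 and 235 in shNFIB, and 286 and 311 in shMLL1 cells. The lowest library was shNFIB at day 0 and the highest shKDM4D at day 0, 2.06-fold apart, or 1.04 on the log2 scale. From day 0 to day 5 the log2 ratio was -0.03 (-0.055 to -0.0021) in shControl, -0.47 (-0.49 to -0.44) in shKDM4D and 0.56 (0.53 to 0.60) in shNFIB cells, and 0.12 (0.10 to 0.14) in shMLL1 cells, where quantile normalization turned it to -0.08 and median-of-ratios scaling to -0.09.

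Between lines, *Gapdh* lay near the median of the other glycolytic enzymes at day 0 and slightly above it at day 5. At day 0 its log2 ratio to shControl was 0.40 in shKDM4D cells, where the median of the 13 other expressed enzymes was 0.42, -0.64 in shNFIB cells, where it was -0.54, and 0.21 in shMLL1 cells, where it was 0.28. The differences from these medians, with outer bounds, were -0.02 (-0.33 to 0.29), -0.10 (-0.19 to 0.0012) and -0.07 (-0.26 to 0.12). The bounds combine the counting interval of *Gapdh* with that of the enzyme at the median, here *Eno2*, *Hk1* and *Hk2* in turn. Here and below, they do not carry the spread of the 13 enzymes around their median. At day 5 *Gapdh* stood at -0.04, -0.05 and 0.36 in shKDM4D, shNFIB and shMLL1 cells, and the median of the other enzymes at -0.11, -0.21 and 0.29. The differences were 0.06 (0.00077 to 0.13), 0.16 (0.07 to 0.25) and 0.07 (0.01 to 0.13), and 10, 10 and 7 of the 13 other enzymes lay below *Gapdh*. The last difference became -0.022 after quantile normalization. The medians of all expressed genes in these 6 comparisons lay between -0.07 and 0.09, so the enzymes and *Gapdh* together departed from them most in shNFIB cells at day 0 and in shKDM4D cells at day 0.

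With the day, *Gapdh* lay below the median of the other glycolytic enzymes, each counted equally, in 3 of the 4 lines. Its log2 ratio of day 5 to day 0 was below the median of the other enzymes by 0.29 in shControl cells (-0.03 against 0.27, difference -0.29, -0.36 to -0.23), by 0.27 in shKDM4D cells (-0.47 against -0.20, difference -0.27, -0.32 to -0.22) and by 0.29 in shMLL1 cells (0.12 against 0.41, difference -0.29, -0.34 to -0.23). In shNFIB cells both were 0.56 (difference 0.01, -0.17 to 0.19). In shControl, shKDM4D and shMLL1 cells 10, 10 and 9 of the 13 other enzymes had a higher ratio than *Gapdh*, and in shNFIB cells 6 of 13. The ratio of *Gapdh* lay below the lower quartile of the other enzymes in shControl (0.13) and shKDM4D cells (-0.46). In shKDM4D cells that quartile is the value of *Gpi1*, whose counting interval (-0.51 to -0.40) overlaps that of *Gapdh* (-0.49 to -0.44). These 2 are therefore not told apart by counting error. In shMLL1 cells *Gapdh* lay within the quartiles of the other enzymes (0.10 to 0.54). The enzymes spread widely around their median, from *Pkm* or *Hk2* at the bottom to *Eno2* at the top in each line, so that the pathway did not move as a block.

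**Figure D3:**
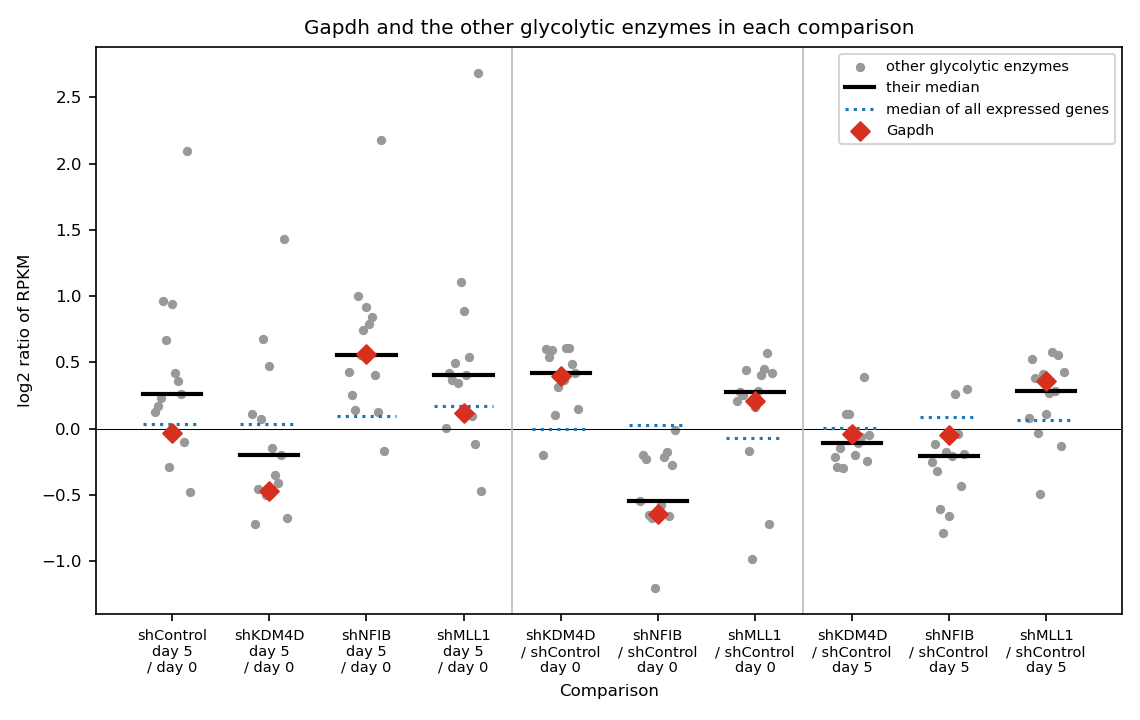
Log2 ratio of RPKM (vertical axis) in the 10 comparisons (horizontal axis) for *Gapdh* (red diamonds), the 13 other expressed glycolytic enzymes (grey points), their median (black bars) and the median of all 11513 expressed genes (dotted blue bars); 1 library per condition. The diamond lies below the black bar in the day comparisons of shControl, shKDM4D and shMLL1 cells and nearer to it in the other comparisons.

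The choice of *Gapdh* as the denominator bears on counts over all genes. In shNFIB against shControl cells at day 0, 340 genes were higher and 696 lower past 2-fold as deposited, and 2272 were higher and 346 lower once each value was divided by *Gapdh* of its library. In shKDM4D cells, 1468 genes were higher and 972 lower at day 5 than at day 0 as deposited, and 2708 and 493 after that division. In shMLL1 against shControl cells at day 5 the counts were 605 and 463 as deposited, and 410 and 891 divided by *Gapdh*. The same division took shKDM4D against shControl cells at day 0 from 228 higher and 490 lower to 116 and 967, and shNFIB cells at day 5 against day 0 to 840 and 2014. Quantile normalization took shMLL1 against shControl cells at day 0 from 192 and 855 to 249 and 619.

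Beside 16 other genes often used to normalise RT-qPCR, *Gapdh* was among the more variable. Its log2 range of 1.04 over the 8 libraries was larger than that of 12 of them and larger than that of 59.8% of the 9282 genes with an RPKM over 1 in all libraries, whose median range was 0.90. *Tbp*, the gene of the TATA-binding protein, had the smallest range of the 16 (0.33), and *Eef1a1* followed with 0.41. *Actb*, the gene of cytoplasmic actin, had a range of 1.00, and *B2m*, *Polr2a*, *Tfrc* and *Tubb5* had ranges from 1.04 to 3.10. A pair of near-identical *Gapdh* copies took 2.32% to 2.92% of the RPKM of the 3 genes, and 88 further annotated copies were not analysed here, so reads shared with copies could add to or take from the value of *Gapdh*.

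**Figure D4:**
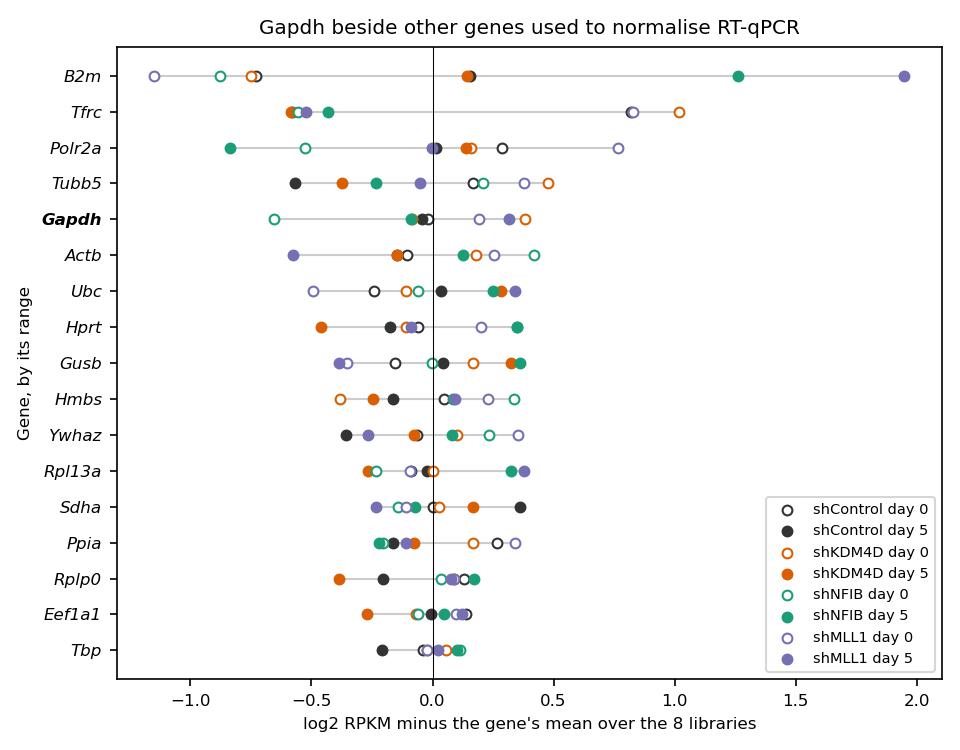
Log2 RPKM of *Gapdh* and 16 other genes used to normalise RT-qPCR (vertical axis, ordered by range), each minus its mean over the 8 libraries (horizontal axis), with open circles for day 0, filled circles for day 5 and 1 colour per line. *Gapdh* spans 1.04 and *Tbp* 0.33, and the lowest *Gapdh* point is shNFIB at day 0.

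By the root mean square difference of log2 RPKM, each centred on its mean over the 8 libraries, the gene most like *Gapdh* among 9281 genes was *Pgam1* (0.12), the enzyme that follows *Pgk1* in the pathway. Among the genes that came next, at 0.14 to 0.16, were *Sco2*, the copy *Gm3839*, *Ttll1*, *Gpi1*, *Smdt1*, *Ttc4*, *Pafah1b3* and *Coq4*. *Gm3839* is 99.1% identical to *Gapdh*, so its place is uncertain. Among the members, *Hk2* ranked 12, *Tpi1* 18, *Pgk1* 112 and *Hk1* 115, whereas *Aldoa* ranked 3997 and *Pfkm* 4116. The measure covers members with an RPKM over 1 in all 8 libraries, which leaves out *Slc2a4* and *Pfkfb3* among others. Of those covered, the farthest from *Gapdh* were *Ldhb* (1.64), *Ndrg1* (1.35) and *Eno2* (1.09). The points of this measure share the 8 libraries, and it describes likeness of levels only.

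Other genes of the same pathways, from lists drawn up for each pathway, were counted in the same way. Of 31 further genes of glycolysis and pyruvate entry, 15 were expressed, and at most 3 were higher and 2 lower past 2-fold in any day comparison. The 3 of 15 were in shMLL1 cells, where 20.4% of all expressed genes were higher, so this share is near the background. *Mpc2*, a subunit of the mitochondrial pyruvate carrier, was at 3.75 to 5.58 at day 0 and 8.68 to 11.2 at day 5. *Pdp1*, the phosphatase that opposes the PDK enzymes, was at 4.95 to 9.04 and then 9.72 to 14.6, while *Bpgm*, the gene of bisphosphoglycerate mutase, went down from 5.24 to 8.03 at day 0 to 2.91 to 3.78 at day 5. *Eno3*, the muscle enolase, stood out in shMLL1 cells at day 0, with 48.9 against 16.1 in shControl and 6.44 in shNFIB cells, and was 20.2 there at day 5. *Slc2a8* reached 1.87 from 0.718 in shMLL1 cells, and *Tigar* was 2.16 and 1.03 in shControl and 1.82 and 2.14 in shNFIB cells. Of 10 further pentose phosphate genes, 8 were expressed. *Shpk*, the gene of sedoheptulokinase, was higher at day 5 past 2-fold in each line (0.341 to 0.553 at day 0, 0.930 to 2.21 at day 5), *Rbks*, the gene of ribokinase, in 3 lines, and *H6pd*, the gene of the enzyme of this step in the endoplasmic reticulum, in shControl cells (8.26 and 19.3).

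Of 34 further hypoxia-inducible and HIF pathway symbols, 33 were found and 31 expressed. From day 0 to day 5, 17 of the 31 were higher past 2-fold in shControl cells, and 7, 16 and 20 in the shKDM4D, shNFIB and shMLL1 lines, with the backgrounds given above for each line. *Epas1*, which encodes HIF-2 alpha, had an RPKM of 1.43 and 26.1 in shControl, 2.32 and 50.6 in shKDM4D, 0.404 and 3.51 in shNFIB, and 0.271 and 3.31 in shMLL1 cells. It was higher at day 5 in all lines, and at both days it was lower in shNFIB and shMLL1 than in shControl and shKDM4D cells. *P4ha2*, a collagen prolyl hydroxylase gene (5.48 to 16.2 at day 0, 25.7 to 33.8 at day 5), *Adm*, the gene of adrenomedullin (2.61 to 8.63, then 13.3 to 34.3), and *Car9*, the gene of a carbonic anhydrase (0.0222 to 0.147, then 0.247 to 2.72), were also past 2-fold in each line, as were the low *Hif3a* (at most 0.00799, then 0.113 to 1.11) and *Ppp1r3c* (at most 0.0578, then 0.488 to 2.08).

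In shControl, shNFIB and shMLL1 cells but not in shKDM4D cells, *P4ha1*, *Plod1*, *Plod2*, *Ddit4*, *Higd1a*, *Fam162a*, *Gys1*, *Gbe1* and *Pgm2* were past 2-fold higher at day 5. Some of these calls rest on values close to the limit. In shKDM4D cells *Plod1* went from 15.2 to 30 and *Plod2* from 20.9 to 38.6, under the limit but near it. In shControl cells *Plod2* went from 9.87 to 20 and *P4ha1* from 49.3 to 100, just past it. *Fam162a*, a HIF target of the mitochondria, had an RPKM of 93.3 and 196 in shControl, 173 and 161 in shKDM4D, 90.7 and 232 in shNFIB, and 86.4 and 260 in shMLL1 cells. *Higd1a*, another hypoxia-inducible mitochondrial gene, had, in the same order, 12.6 and 32.7, 23.0 and 27.2, 13.8 and 35.5, and 14.9 and 46.2. As for *Bnip3* and *Pdk1*, the day 0 value of both genes in shKDM4D cells was the highest of the 4 lines. *P4ha1* was at 40.1 to 63.4 at day 0 and 97.4 to 105 at day 5, *Plod1* at 6.78 to 15.2 and 14.2 to 36.1, and *Plod2* at 7.91 to 20.9 and 20 to 38.6. *Ddit4* was at 5.46 to 10.9 and 15.0 to 24.7, *Gys1* at 5.72 to 12.3 and 14.6 to 19.1, *Gbe1* at 1.51 to 3.27 and 3.76 to 5.67, and *Pgm2* at 8.36 to 23.8 and 19.1 to 35.5.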

How the data were processed

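RNA from C3H10T1/2 cells was made into libraries with a SMARTer kit and sequenced on a HiSeq 2500 by the authors, who mapped the reads to GRCm38/mm10 with CLC Genomics Workbench 11.0.1 (penalties of 2 for a mismatch and 3 for an insertion or a deletion, with 0.8 as the minimum both for the aligned fraction and for its similarity). The deposited values are RPKM per gene symbol, which scale with library size and exon length and carry no replicate spread. The gene annotation and strand setting of the counting are not given in the sources used here, so reads of overlapping antisense genes cannot be told apart.

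Reads were recovered by multiplying RPKM by the exon length of GENCODE release 21 of the mouse annotation and the library size at which low values became whole. Between 96.2% and 96.6% of values worth 1 to 1000 reads came within 0.02 of a whole read. This gave the depth of 15800000 to 38200000 reads and the 95% intervals. A gene was called past 2-fold on RPKM without a pseudocount, among genes whose highest RPKM over the libraries exceeded 1. With 1 library per condition no p-value was computed. The steps were checked on simulated data. Coordinates are 1-based in GRCm38. Copies were transcripts of other genes at least 95% identical to a member over at least 200 bases and 50% of the copy (BLAST 2.17.0). Promoters are those of RefSeq for GRCm38.p6.

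Values in all 8 libraries are given for *Gapdh*, for members past 2-fold in any comparison and for the most abundant member of each role. Members and lists were chosen with earlier results of these data known. Alternatives were quantile normalization, median-of-ratios scaling, division by *Gapdh*, adding 0.1 or 1 to each RPKM, no filter or RPKM over 5, and 1 isoform per step. Added after seeing the data were leaving out *Aldoa*, summing *Eno1* with *Eno1b*, and requiring 10 reads. Python 3.11.15 with numpy 2.4.6, pandas 2.3.3 and scipy 1.17.1 was used. Results for some genes are not reported here.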

Additional observations from a re-analysis of the deposited data

Results flagged for a closer look

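For 5 members the day 5 to day 0 log2 ratios pointed in opposite directions in different lines and lay more than 1 apart. With 1 library per condition these differences were not tested. *Pdk4* was higher at day 5 in shControl cells (2.38) and lower in shNFIB cells (-0.54), a difference of 2.92. *Pfkp* was higher in shMLL1 cells (1.11) and lower in shKDM4D cells (-0.50), a difference of 1.60. *Pgk1* was higher in shNFIB cells (0.84) and lower in shKDM4D cells (-0.35), a difference of 1.19, and *Hk2* was higher in shMLL1 cells (0.42) and lower in shKDM4D cells (-0.72), a difference of 1.14. *Gapdh* was higher in shNFIB cells (0.56) and lower in shKDM4D cells (-0.47), a difference of 1.03. After quantile normalization the values of these lines were 0.36 and -0.51 for *Gapdh*, 0.12 and -0.79 for *Hk2*, and 0.62 and -0.37 for *Pgk1*. Each pair then lay less than 1 apart, still in opposite directions. Median-of-ratios scaling also brought *Gapdh* (0.46 and -0.52) and *Hk2* (0.21 and -0.77) under that limit. The counting intervals of both lines excluded 0 in each of the 5 pairs, but this was part of the rule that picked them. It therefore adds no support.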

How the results depend on the processing

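Among the counts of members past 2-fold, quantile normalization and median-of-ratios scaling moved none by over 1.5 times. Division by *Gapdh* took the count for shMLL1 against shControl cells at day 0 from 1 to 4, and no filter on RPKM took it to 3. Without the filter, the counts at day 5 were 6 in shKDM4D and 7 in shNFIB cells (2 and 4 with it), an RPKM over 5 left 1 in shKDM4D cells, and adding 1 to each RPKM left 1 in shMLL1 cells (4 without). The log2 ratio of *Gapdh* minus the median of the other glycolytic enzymes was -0.27 from day 0 to day 5 in shKDM4D cells, and -0.21 after quantile normalization and -0.20 without *Aldoa*, at day 0 in shNFIB cells -0.23 without *Aldoa* (-0.10 with it), and at day 5 in shMLL1 cells, where it was 0.07, it became -0.022 after quantile normalization. In the day comparison of shNFIB cells it went from 0.01 to -0.17 after quantile normalization, so that the sign of these 2 differences is not fixed. The cause of these moves was not tested. Requiring 10 reads removed *Slc2a4* and left 8 and 11 members higher at day 5 than at day 0 in shNFIB and shMLL1 cells. Limits remain. Each condition is 1 library, and the lines may differ by clone. Depth limited *Slc2a4*, *Kdm4d*, *Slc2a3* and *Egln3*, while *Eno1* and *Gapdh* share sequence with copies. Strand use in counting is unknown. No paired analysis of replicates was possible because each condition has 1 library. A fit of day with the 4 lines as pairs, which would take different knockdowns as replicates, was not run.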
